A study of Arabidopsis thaliana with 4 samples.

Results

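The SMALL AUXIN UP RNA (SAUR) genes were compared between Arabidopsis thaliana seedlings labelled fip1-2 and control, with 2 RNA sequencing libraries of each. The members are 60 SAUR genes of the 27654 genes in the deposited table, taken by locus identifier. They were chosen with earlier results of these data known. Clusters here are 5 runs of neighbouring loci, with 6 genes on chromosome 5, 8 on chromosome 1 and 4 on chromosome 3. The other 2 runs, of 7 and 4 genes, are on chromosome 4. All 31 members outside these runs are called dispersed. Some of them are also neighbours: SAUR6 with SAUR7 and SAUR12, SAUR53 with SAUR54, and SAUR51 with SAUR52. Here the run from SAUR49 to SAUR5 is called the upper and that from SAUR13 to SAUR16 the lower chromosome 4 cluster. Of the 60 genes, 48 had a mean of at least 10 normalised reads over the 4 libraries and were tested.

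The fip1-2 seedlings carry a mutation in FIP1[V], which encodes a subunit of the complex that cleaves and polyadenylates pre-mRNA. The control is a Columbia line with the SKP2B::GUS reporter, and the labels do not say whether fip1-2 carries that reporter too. The labels give whole seedlings in Murashige and Skoog medium for both groups, a growth time without its unit, and neither the lesion of the allele nor whether the libraries came from separate cultures. Each p-value therefore measures the spread between these libraries, which may be technical. The series text names sequencing of poly(A) tags, whereas the extract protocol describes oligo(dT)-selected, fragmented mRNA.

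SAUR genes encode short proteins, most of them from a single exon, and many are among the fastest transcripts to rise after auxin. SAUR proteins such as SAUR19 and SAUR9 bind and inhibit D-clade PP2C phosphatases, which otherwise dephosphorylate plasma membrane proton pumps. With the phosphatases inhibited the pumps stay active, the cell wall is acidified and the cell expands, so that the family is best known for elongation of hypocotyls, petioles and stamen filaments.

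Many members lie in tandem arrays whose copies are so alike that reads may be assigned to the wrong copy. The coding sequences of the 6 chromosome 5 genes, SAUR19 to SAUR24, shared 88.3% to 95.9% of aligned bases over 15 pairs (median 92.3%). The last 90 bases that aligned without a gap in all 6 coding sequences (bases 184 to 273 in SAUR19) are shown in coding direction from RefSeq (TAIR10.1), because they show how few bases separate the copies. Capitals mark the 14 positions at which any of the 6 copies differ, and the other 76 are the same in all.
SAUR19: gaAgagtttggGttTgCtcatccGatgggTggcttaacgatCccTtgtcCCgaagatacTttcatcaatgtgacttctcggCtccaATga
SAUR20: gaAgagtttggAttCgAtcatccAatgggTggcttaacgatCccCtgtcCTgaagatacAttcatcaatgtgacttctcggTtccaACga
SAUR21: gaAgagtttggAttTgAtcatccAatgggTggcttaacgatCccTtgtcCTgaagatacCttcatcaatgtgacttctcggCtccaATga
SAUR22: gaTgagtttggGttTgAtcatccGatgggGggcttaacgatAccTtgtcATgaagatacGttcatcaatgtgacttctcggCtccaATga
SAUR23: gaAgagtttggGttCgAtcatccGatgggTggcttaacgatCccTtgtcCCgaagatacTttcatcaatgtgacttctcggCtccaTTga
SAUR24: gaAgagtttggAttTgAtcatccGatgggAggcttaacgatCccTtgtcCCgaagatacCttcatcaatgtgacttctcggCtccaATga

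The 4 chromosome 3 copies, SAUR26 to SAUR29, were less alike, with 80.6% to 87.2% of coding bases shared. The matching 90 bases are shown for comparison with the chromosome 5 genes, with capitals at the 24 positions that differ among the 4 copies and 66 positions shared by all.
SAUR26: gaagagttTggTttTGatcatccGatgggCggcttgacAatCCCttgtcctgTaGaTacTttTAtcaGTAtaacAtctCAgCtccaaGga
SAUR27: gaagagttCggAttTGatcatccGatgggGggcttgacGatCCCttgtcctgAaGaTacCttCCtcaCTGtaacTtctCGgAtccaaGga
SAUR28: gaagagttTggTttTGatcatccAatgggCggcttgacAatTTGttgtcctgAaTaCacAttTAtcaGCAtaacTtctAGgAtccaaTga
SAUR29: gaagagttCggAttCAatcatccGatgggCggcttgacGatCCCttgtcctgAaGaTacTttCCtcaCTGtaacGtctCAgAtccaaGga
The chromosome 1 genes shared 79.2% to 92% of coding bases, and the upper and lower chromosome 4 genes 48.9% to 73.1% and 57.1% to 70.8%. Across the RefSeq transcripts, 13 of the 60 members held a 50-base window found elsewhere in the genome, up to 33.9% of the windows in AT1G29510. At 100 bases the number was 3 of 60 (SAUR62, SAUR63 and AT1G29510). AT1G29490 and AT1G29510 are given by locus because RefSeq gives both the same symbol, SAUR68. Values of single copies on chromosomes 5 and 1 are therefore uncertain, and the sums over each cluster are given beside them. The sources used here do not say how reads shared by copies were counted, so the sums may lack such reads too.

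FIP1[V] (AT5G58040), the gene the mutant is named for, had 5217 and 5145 normalised reads in the fip1-2 libraries, against 1796 and 1912 in the control libraries. It was higher in both fip1-2 libraries, by 1.48 ± 0.05 on the log2 scale (SE, n = 2 each; limma with Benjamini-Hochberg adjustment over all genes tested, adjusted p = 2.98e-11). A gene-wide count does not show whether an intact transcript was made, so it does not check the labels, and every direction below rests on them. The libraries held 20874114 to 20908391 recovered reads in fip1-2 and 21056064 to 21104606 in the control, and across genes the 4 libraries correlated more closely within a group (r = 0.994 in both) than between groups (r from 0.949 to 0.956). Markers of the labelled whole seedling were present, with 5 shoot genes summing to 884962 and 927965 normalised reads in fip1-2 against 818664 and 838572 in the control, and 5 root genes to 2441 and 2487 against 1665 and 1632. Of the shoot genes, 2 (LHB1B1 and LHCA1) were higher in fip1-2, 1 (CAB1) was lower and 2 did not pass. The call of CAB1 (limma adjusted p = 0.0456) was lost with quantile normalisation, with no filter on low values and when any library was left out. RBCS1A, which did not pass, was called higher by DESeq2 (adjusted p = 0.033). Of the root genes, 4 were higher and 1 (CASP4) was lower. All 8 seed storage and oil body genes listed were higher in fip1-2, with sums of 5199 and 1951 normalised reads in fip1-2 and 253.6 and 64.1 in the control; SESA3 was at 0 in both control libraries. Their part in the SAUR results was not tested. In whole seedlings, fewer cells of a type and less RNA per cell cannot be told apart.

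Over the 60 members together, SAUR transcripts were lower in fip1-2. Summed over the 60 genes they came to 8299 and 8767 normalised reads in the fip1-2 libraries, against 11649 and 12129 in the control libraries, so that the sum was 28.2% lower in fip1-2 and the groups did not overlap. Of the 48 members tested, 34 fell, 1 rose (SAUR30) and 13 did not pass the test. Across all 19931 genes tested, 26.8% fell and 27.0% rose, against 70.8% and 2.08% of the members. In 39 members both fip1-2 libraries lay below both control libraries, which holds for 39.0% of all genes tested. In 2 members, SAUR7 and SAUR30, both fip1-2 libraries lay above, against 38.2% of all genes, and in 7 the groups overlapped.

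The median log2 fold change of the 48 members was -0.53, while that of all genes tested was -0.0043. Falls of at least 2-fold were made by 11 members (22.9%), against 3.76% of all genes tested. Of the 24 clustered members tested 17 fell, and of the 24 dispersed members tested 17 fell, with medians of -0.46 and -0.66; the difference was not tested. edgeR's quasi-likelihood test on recovered reads called 34 members lower, with 26.7% of all genes lower. DESeq2 called 19 of the 48 lower (39.6%), with 17.3% of all genes lower.

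**Figure D1:**
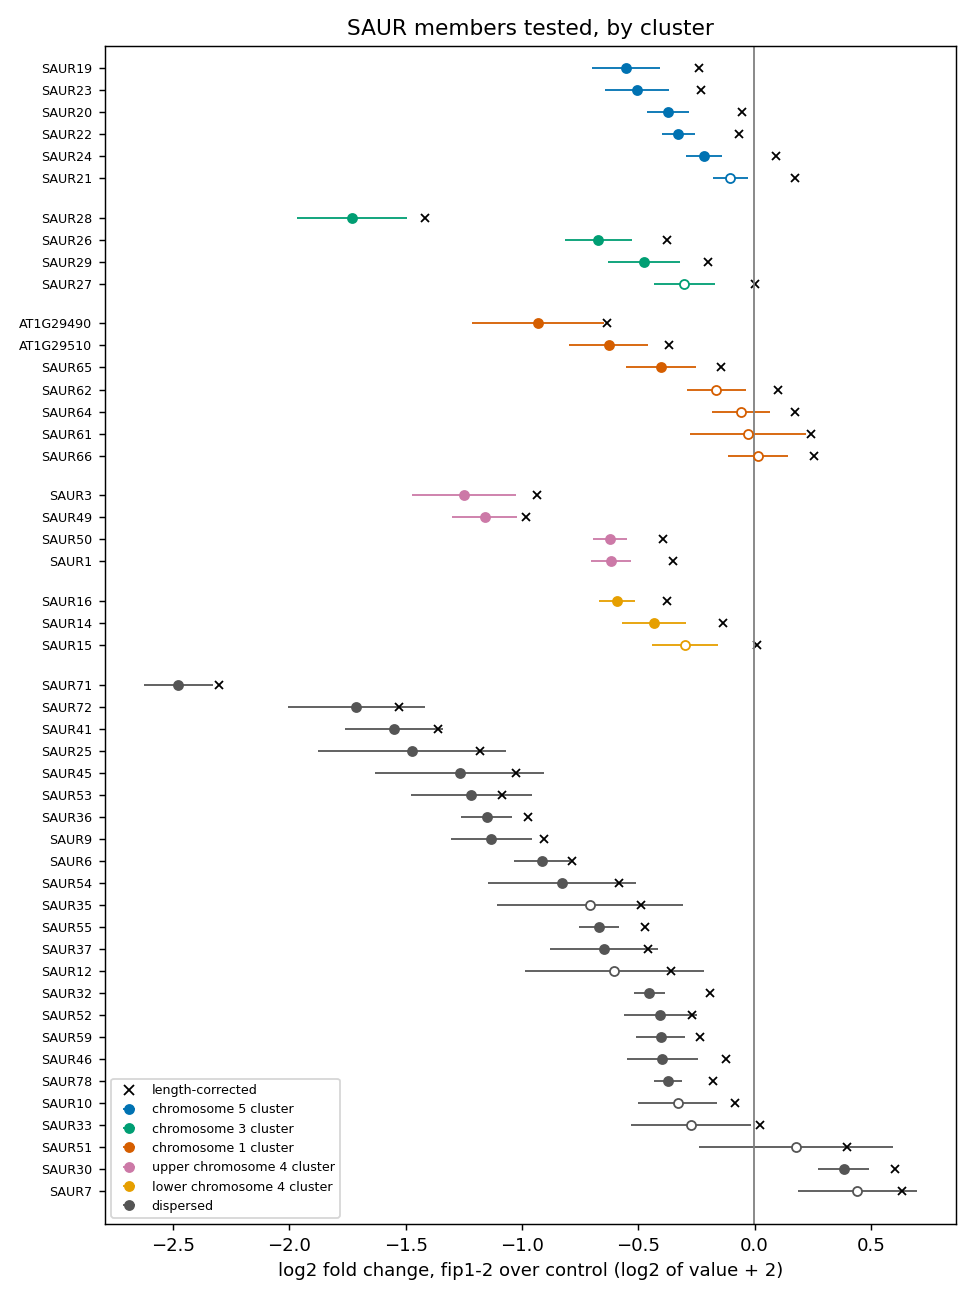
Log2 fold change (fip1-2 over control, x axis) of each of the 48 SAUR members tested, grouped and coloured by cluster, with bars for ± 1 SE and n = 2 libraries per group. Filled circles passed the test at an adjusted p of 0.05, open circles did not, crosses give the length-corrected value described in the next paragraphs, and the grey line is the median of all genes tested (-0.0043). Most circles lie left of the line, and SAUR71 lies farthest left at -2.48.

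The members are short, and short transcripts as a class were lower in fip1-2. The longest RefSeq transcript of the members ran from 427 to 1690 bases with a median of 836, against a median of 1748 over all genes tested with a length, and 56 of the 60 members have a single exon. With all genes split into 10 groups by length, in the shortest group (42 to 936 bases), which holds 34 of the 48 members tested, the median log2 fold change was -0.25, and in the longest group (at least 3127 bases) it was 0.26. The closest class was the 1405 single-exon genes of 483 to 1402 bases. Of these, 49% fell and 12.3% rose, at a median of -0.37, and 46 of the 1405 are members.

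A smooth curve of the log2 fold change against length and GC content was fitted over all genes and subtracted, here called the length correction. It moved the members' median to -0.26. On that scale 19 members fell (39.6%) and 2 rose (4.17%), while 25.0% of all genes fell and 24.6% rose. A further exon correction, chosen after the data had been seen, centred single-exon genes apart and gave a median of -0.12. There 16 members fell (33.3%) and 5 rose (10.4%), against 24.2% and 25.1% of all genes. The 5 that rose there were SAUR7, SAUR21, SAUR24, SAUR30 and SAUR66, of which SAUR7 and SAUR30 also rose after the length correction. After the length correction 7 of 24 clustered and 12 of 24 dispersed members fell, against 25.0% of all genes. After the exon correction 6 of 24 and 10 of 24 fell, against 24.2%, while 3 clustered and 2 dispersed members rose. The medians after the 2 corrections were -0.17 and -0.035 for clustered and -0.46 and -0.33 for dispersed members. The cause of the trend was not tested.

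**Figure D2:**
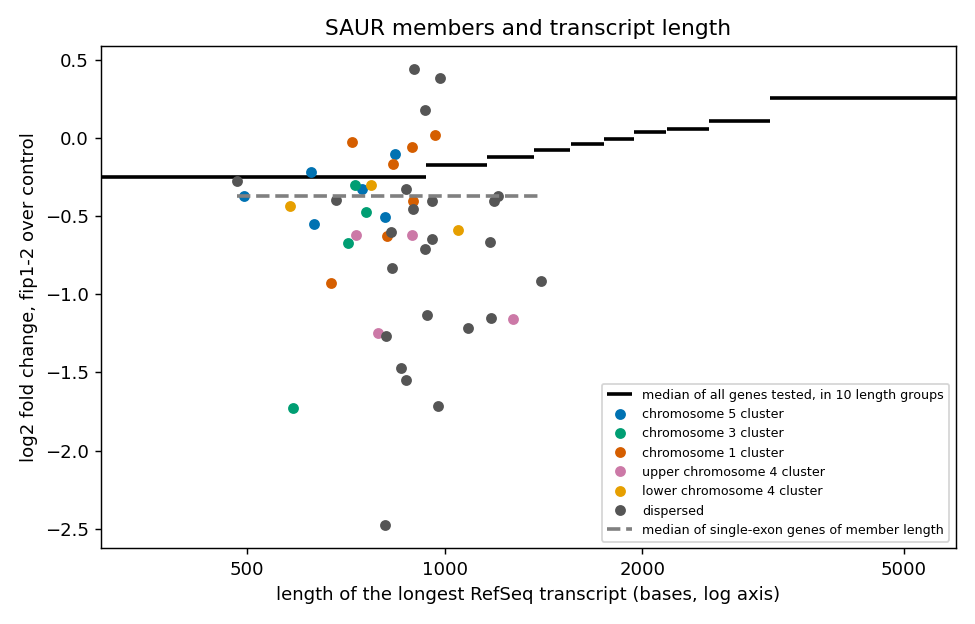
Log2 fold change (fip1-2 over control) of the 48 SAUR members tested, coloured by cluster, against the length of the longest RefSeq transcript in bases (log axis, cut at both ends). Black lines are medians of all genes tested in 10 length groups, from -0.25 in the shortest to 0.26 in the longest, and the dashed grey line is the median of single-exon genes of the members' length (-0.37). Some dispersed and upper chromosome 4 members, and SAUR28 on chromosome 3 (-1.73), reach far below both lines. Some dispersed members, such as SAUR7 and SAUR30, lie above both. Most chromosome 5 and chromosome 1 members lie near the lines.

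As measured, without the length correction, the cluster sums were lower in fip1-2 by different amounts. The clusters were not tested against each other. The upper chromosome 4 cluster was the lowest relative to the control, with sums of 769.3 and 787.7 normalised reads in fip1-2 against 1327 and 1249 in the control, 39.6% lower in fip1-2. The chromosome 3 cluster summed to 386.2 and 358.1 in fip1-2 and 559.2 and 612.5 in the control (36.5% lower), and the lower chromosome 4 cluster to 681.2 and 715.1 against 1018 and 982.3 (30.2% lower). In each of these 3 runs the fip1-2 libraries lay well below the control libraries.

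The chromosome 5 and chromosome 1 arrays differed least between the groups. The chromosome 5 cluster summed to 2123 and 2289 in fip1-2 and 2606 and 2779 in the control (18.1% lower). The chromosome 1 cluster summed to 963.9 and 1001 in fip1-2 and 988.6 and 1212 in the control (10.7% lower), and there 1 fip1-2 library was above the lower control library. The 31 dispersed members came to 3376 and 3617 in fip1-2 and 5150 and 5293 in the control (33% lower).

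Set against the dispersed members within each library, the chromosome 1 sum was 0.42 higher in fip1-2 than in the control on the log2 scale and the chromosome 5 sum 0.29 higher, with no overlap between groups. The upper chromosome 4 sum was 0.15 lower (a difference of -0.15), also without overlap. Each of these gave an exact two-sided permutation p of 0.333, the smallest that 2 libraries against 2 allow, and adjustment over the 5 comparisons cannot lower it. The lower chromosome 4 and chromosome 3 sums differed by 0.06 and -0.08 with overlapping groups (exact p = 0.667 for both).

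**Figure D3:**
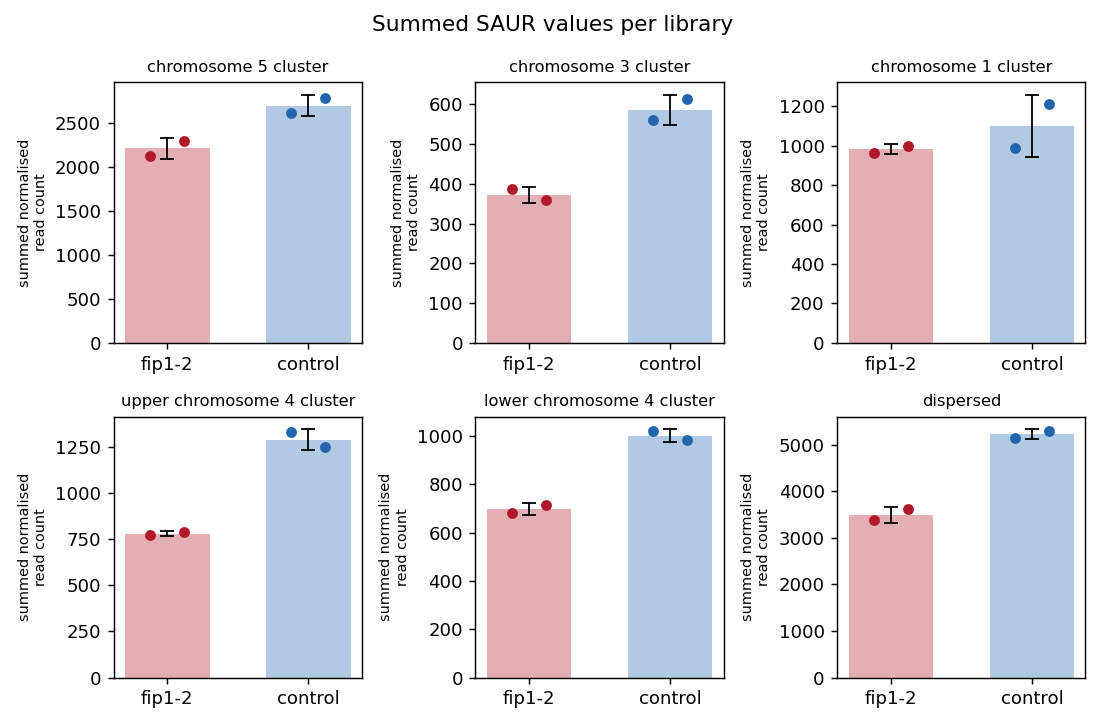
Summed normalised read count of the SAUR genes of each cluster and of the dispersed members, with fip1-2 left of control. Points are libraries, bars are means and error bars are SD (n = 2 each). The upper chromosome 4 bar for fip1-2 stands at 778.5 against 1288 for the control, whereas the chromosome 1 points of both groups interleave.

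In the upper chromosome 4 cluster all 4 members tested were lower in fip1-2, against 26.8% of all genes tested. Of single-exon genes of the members' length, 49% were lower. SAUR50 (AT4G34760), which takes part in cotyledon opening in light, had 396.4 and 407.9 normalised reads in fip1-2 against 633.2 and 606.7 in the control. SAUR49 (AT4G34750) had 79.9 and 93.4 in fip1-2 and 206.6 and 185.4 in the control, and SAUR1 (AT4G34770) had 256.1 and 253.2 against 398.7 and 385.4. SAUR3 (AT4G34790) was the weakest of the 4, with 25.6 and 24.9 in fip1-2 and 70.1 and 56.3 in the control. For none of these genes did the groups overlap. Across all genes tested, both fip1-2 libraries lay below both control libraries in 39.0%.

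The log2 fold changes by limma were -1.25 ± 0.22 for SAUR3 (adjusted p = 0.0003), -1.16 ± 0.14 for SAUR49 (adjusted p = 6.7e-06), -0.62 ± 0.07 for SAUR50 (adjusted p = 6.39e-06) and -0.62 ± 0.09 for SAUR1 (adjusted p = 3.43e-05). These 4 genes were lower under every alternative that tested them. After the length correction the cluster's median was -0.66, against -0.89 as measured. The other 3 genes of the run, SAUR2, SAUR4 and SAUR5, were too low to test. SAUR4 (AT4G34800) had 7.17 and 5.19 normalised reads in fip1-2 and 11.5 and 12.6 in the control, and SAUR2 (AT4G34780) had a single read in all, in a control library.

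The chromosome 3 cluster was led by SAUR28. These genes form the SAUR26 subfamily, which is known for natural variation in the growth response to warm temperature. SAUR28 (AT3G03830) had 39.9 and 22.8 normalised reads in fip1-2 against 110.5 and 99.98 in the control, a log2 fold change of -1.73 ± 0.24 (limma, adjusted p = 2.46e-05). SAUR26 (AT3G03850) had 130.1 and 101.7 in fip1-2 and 172 and 198 in the control (-0.67 ± 0.14, adjusted p = 0.0012), and SAUR29 (AT3G03820) had 96.3 and 121.4 against 135.5 and 168.9 (-0.48 ± 0.15, adjusted p = 0.0179). SAUR27 (AT3G03840) had 119.9 and 112.1 in fip1-2 and 141.2 and 145.6 in the control; the groups did not overlap, but the difference of -0.30 ± 0.13 did not pass (adjusted p = 0.0646).

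SAUR28 was lower under every alternative run, and its difference from the other 3 copies was not tested. SAUR26 lost its call under the exon correction. SAUR29 lost it under both corrections, in DESeq2, with no filter on low values, without control replicate 2 and without fip1-2 replicate 1. The cluster's median was -0.58 as measured and -0.29 after the length correction.

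In the lower chromosome 4 cluster SAUR16 carried most of the reads and the clearest fall. SAUR16 (AT4G38860), which like SAUR50 acts in light-driven cotyledon opening, had 415.9 and 473.3 normalised reads in fip1-2 against 671.6 and 665.9 in the control (-0.59 ± 0.08, limma adjusted p = 1.91e-05), and it was lower under every alternative run. SAUR14 (AT4G38840) had 164.9 and 136 in fip1-2 and 226.7 and 181.5 in the control (-0.43 ± 0.14, adjusted p = 0.0157), and the call was lost after the length correction, in DESeq2, with no filter on low values, without control replicate 1 and without fip1-2 replicate 2. SAUR15 (AT4G38850), also known as SAUR-AC1 and used as an auxin response marker, had 100.4 and 105.9 in fip1-2 and 120.1 and 134.9 in the control. Its groups did not overlap but its difference of -0.30 ± 0.14 did not pass (adjusted p = 0.0868). SAUR13 (AT4G38825) was listed at 0 in all 4 libraries.

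The chromosome 5 genes, SAUR19 to SAUR24, are well studied promoters of hypocotyl elongation in the family. All 6 had both fip1-2 libraries below both control libraries, and 5 fell, against 39.0% and 26.8% of all genes tested. Of single-exon genes of the members' length, 49% fell. SAUR19 (AT5G18010) had 104.5 and 98.6 normalised reads in fip1-2 against 133.5 and 167.9 in the control (-0.55 ± 0.15, limma adjusted p = 0.00536). SAUR20 (AT5G18020) had 428.2 and 518.9 in fip1-2 and 589 and 632.9 in the control (-0.37 ± 0.09, adjusted p = 0.00285). SAUR22 (AT5G18050), the most abundant of the 6 by reads, had 533.7 and 527.2 against 639.9 and 693.1 (-0.33 ± 0.07, adjusted p = 0.0014).

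The changes were modest, the largest being that of SAUR19, 1.47-fold lower in fip1-2. SAUR23 (AT5G18060) had 110.6 and 101.7 normalised reads in fip1-2 and 143.2 and 160.2 in the control (-0.51 ± 0.14, limma adjusted p = 0.00582). SAUR24 (AT5G18080) had 480.4 and 541.8 in fip1-2 and 594.7 and 593.1 in the control (-0.22 ± 0.08, adjusted p = 0.0268), and under the exon correction the call reversed to higher (0.23, limma adjusted p = 0.0193). SAUR21 (AT5G18030), the member that did not pass, had 465.1 and 500.2 in fip1-2 and 505.4 and 531.9 in the control, and was called higher under the exon correction (0.31, limma adjusted p = 0.00268). Without control replicate 2 the calls of SAUR19 and SAUR23 were lost, and without fip1-2 replicate 1 those of SAUR20 and SAUR24, while SAUR24 also lost its call in DESeq2 and with no filter on low values. After the length correction limma called 0 of the 6 lower (0 also at an unadjusted p under 0.05), and the median was -0.06. edgeR called 5 and DESeq2 2 of the 6 lower without that step.

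The products of the chromosome 1 cluster (the SAUR63 subfamily) promote elongation of hypocotyls and stamen filaments. Of its 7 members tested 3 fell, against 26.8% of all genes and 49% of single-exon genes of the members' length. In the other 4 the groups overlapped. The median of this cluster was -0.16 as measured and 0.10 after the length correction. AT1G29490 had 29.7 and 16.6 normalised reads in fip1-2 against 48.04 and 40.8 in the control (-0.93 ± 0.28, limma adjusted p = 0.0127). AT1G29510 had 55.3 and 57.1 in fip1-2 and 85.5 and 90.3 in the control (-0.63 ± 0.17, adjusted p = 0.00637), and SAUR65 (AT1G29460) had 90.1 and 104.8 against 120.1 and 138.8 (-0.40 ± 0.15, adjusted p = 0.0335). These 3 calls were lost after the length correction and in DESeq2, which called 0 of 7 lower (1 at an unadjusted p under 0.05). AT1G29490 also lost its call without fip1-2 replicate 2, SAUR65 without control replicate 2 or fip1-2 replicate 1, and both with no filter on low values.

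SAUR66 (AT1G29500), the most abundant of the run, had 406.7 and 391.3 in fip1-2 and 326.7 and 475.6 in the control, a difference of 0.02 ± 0.13 (limma adjusted p = 0.921). Its fip1-2 libraries lay between the control libraries, so that the gene was called lower without control replicate 1 and higher without control replicate 2. SAUR62 (AT1G29430) had 165.9 and 215.9 in fip1-2 and 205.6 and 219.4 in the control (-0.16 ± 0.13, adjusted p = 0.298). SAUR61 (AT1G29420) had 29.7 and 28.02 against 28.8 and 30.1, and SAUR64 (AT1G29450) had 186.4 and 186.8 against 173.9 and 217.4. SAUR63 (AT1G29440) itself was listed at 0 in all 4 libraries.

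Both members listed at 0 overlap an annotated gene on the other strand. In RefSeq, SAUR63 overlaps AT1G29435 and SAUR13 overlaps AT4G38820, and those 2 partners were also at 0 in all 4 libraries. SAUR64 overlaps AT1G29435 too and had 173.9 to 217.4 normalised reads. In SAUR63, 27.1% of 50-base and 18.9% of 100-base windows were also found elsewhere in the genome. A count of 0 allows up to 3 reads per library, for counting error only. The sources used here do not say how reads in overlaps were counted, so these zeros do not show that the genes were silent. Another 6 members overlap an annotated gene (SAUR6, SAUR7, SAUR8, SAUR31, SAUR61 and SAUR64), and their values are uncertain for the same reason.

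The largest fall among the 48 members tested was that of a dispersed member, SAUR71. SAUR71 (AT1G56150) had 37.9 and 40.5 normalised reads in fip1-2 against 228.7 and 226.2 in the control, 5.57-fold lower in fip1-2 on the log2(value + 2) scale (-2.48 ± 0.15, limma adjusted p = 6.98e-09). SAUR72 (AT3G12830) had 16.4 and 36.3 in fip1-2 and 98 and 73.8 in the control (-1.71 ± 0.29). SAUR41 (AT1G16510), which promotes cell expansion and gives its name to the subfamily of SAUR40, SAUR41, SAUR71 and SAUR72, had 24.6 and 31.1 against 89.3 and 80.6 (-1.55 ± 0.21). All 3 tested genes of the SAUR41 subfamily were thus lower in fip1-2 with no overlap, as were 39.0% of all genes tested. SAUR40 (AT1G79130) had at most 1 read in any library.

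**Figure D4:**
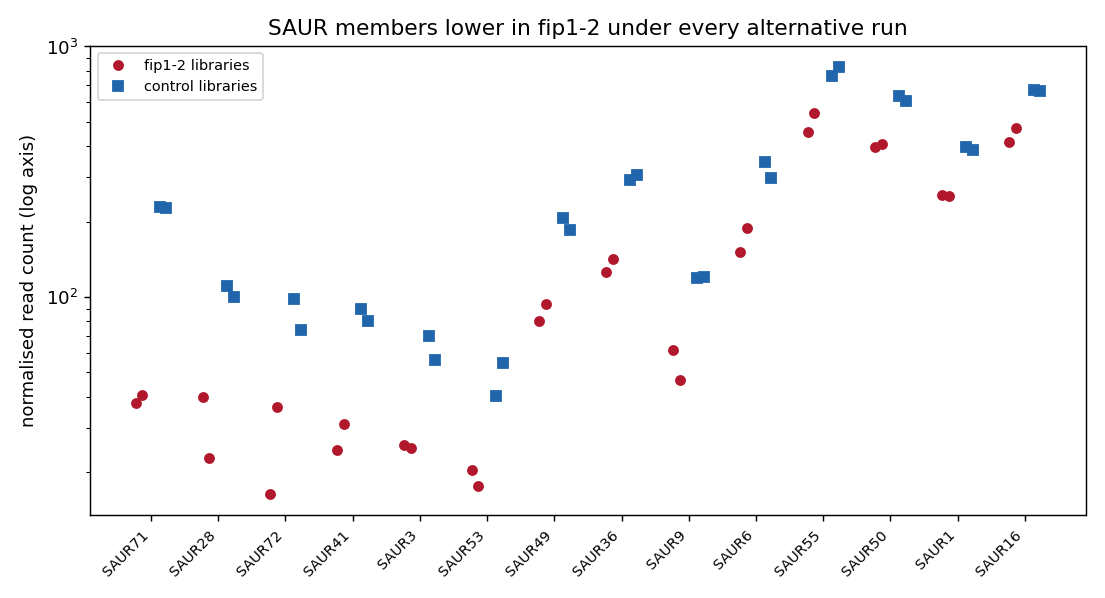
Normalised read count (log axis) of the 14 SAUR members that were lower in fip1-2 under every alternative that tested them, ordered from the largest fall at left, with the fip1-2 libraries (circles) left of the control libraries (squares). In all 14 both fip1-2 libraries lie below both control libraries, most widely apart for SAUR71, with 37.9 and 40.5 in fip1-2 against 228.7 and 226.2 in the control.

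SAUR36 (AT2G45210), known as a promoter of leaf senescence, had 126 and 142.2 normalised reads in fip1-2 against 293 and 306.7 in the control (-1.15 ± 0.11, limma adjusted p = 8.56e-07). SAUR55 (AT5G50760) had 454.8 and 544.9 in fip1-2 and 760 and 826 in the control (-0.67 ± 0.09, adjusted p = 1.36e-05). SAUR6 (AT2G21210) had 151.6 and 188.9 against 344.9 and 298 (-0.91 ± 0.12, adjusted p = 1.97e-05). All 3 were lower under every alternative run, though SAUR6 overlaps SAUR7 on the same strand, and SAUR7 (AT2G21200) had 34.8 and 33.2 in fip1-2 and 22.1 and 27.2 in the control (0.44 ± 0.26, adjusted p = 0.162). SAUR7 was called higher after the length correction (0.64, limma adjusted p = 0.0485) and the exon correction (0.77, limma adjusted p = 0.0182).

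SAUR9 (AT4G36110), which inhibits the same phosphatases as SAUR19, had 61.5 and 46.7 normalised reads in fip1-2 against 119.1 and 120.4 in the control (-1.13 ± 0.18). SAUR53 (AT1G19840) had 20.5 and 17.6 in fip1-2 and 40.4 and 54.4 in the control (-1.22 ± 0.26). Both remained lower under every alternative that tested them. SAUR25 (AT4G13790) and SAUR45 also fell by at least 2-fold, from low levels. SAUR25 had 16.4 and 5.19 in fip1-2 and 27.9 and 32.03 in the control, SAUR45 (AT2G36210) had 6.15 and 10.4 against 23.1 and 21.4, and both lost the call in DESeq2. Leaving out fip1-2 replicate 2 also ended the call of SAUR25, and leaving out fip1-2 replicate 1 that of SAUR45.

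SAUR78 (AT1G72430), the dispersed member with the highest mean and a gene linked to ethylene receptor signalling, had 929.1 and 997.4 normalised reads in fip1-2 against 1270 and 1222 in the control. Its fall was small (-0.37 ± 0.06, limma adjusted p = 0.000138), and it was lost under the exon correction. SAUR32 (AT2G46690), which acts in the apical hook, behaved in the same way, with 651.5 and 660.1 in fip1-2 and 868.5 and 928 in the control (-0.45 ± 0.07).

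Another 5 dispersed members fell, and each of these calls was lost in DESeq2 and after the length correction, and all but that of SAUR59 also with no filter on low values. SAUR59 (AT3G60690) had 212 and 213.8 normalised reads in fip1-2 against 263.3 and 302.9 in the control (-0.40 ± 0.10), and its call was also lost without control replicate 2. SAUR54 (AT1G19830) had 18.4 and 13.5 in fip1-2 and 23.1 and 37.9 in the control (-0.83 ± 0.32), and lost its call without control replicate 2 or fip1-2 replicate 2. SAUR37 (AT4G31320) had 34.8 and 35.3 against 46.1 and 67.9 (-0.65 ± 0.23), and kept its call only without control replicate 1 among the 4 omissions. In all of these the fip1-2 libraries were the lower ones, but the control libraries lay far apart for SAUR54 and SAUR37. SAUR46 (AT2G37030) had 81.9 and 100.7 in fip1-2 and 123 and 117.5 in the control (-0.40 ± 0.15), a call that among the omissions was kept only without fip1-2 replicate 2. SAUR52 (AT1G75590) had 82.97 and 73.7 against 108.6 and 99.98 (-0.41 ± 0.16), and its call was lost when any of the 4 libraries was left out.

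SAUR30 (AT5G53590) was the only member that rose by limma, with 247.9 and 239.7 normalised reads in fip1-2 against 173.9 and 200 in the control (0.38 ± 0.11, adjusted p = 0.00886). Both fip1-2 libraries lay above both control libraries. The call was lost in DESeq2, without control replicate 1 and without fip1-2 replicate 1, while the length correction moved the value to 0.60.

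The other 5 dispersed members tested did not pass. SAUR10 (AT2G18010) had 77.8 and 103.8 normalised reads in fip1-2 against 103.8 and 124.2 in the control (-0.33 ± 0.17), and was called lower without fip1-2 replicate 2. SAUR33 (AT3G61900) had 37.9 and 24.9 in fip1-2 and 39.4 and 35.9 in the control, and SAUR51 (AT1G75580) had 12.3 and 12.4 against 16.3 and 6.79. In these 3 genes the groups overlapped. SAUR12 (AT2G21220) had 7.17 and 9.34 in fip1-2 and 14.4 and 12.6 in the control, and SAUR35 (AT4G12410) had 6.15 and 8.3 against 11.5 and 14.6. Their fip1-2 libraries lay below their control libraries, but at most 15 reads per library stood behind them, and the errors were 0.38 and 0.40 on the log2 scale.

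Of the 12 members too low to test, SAUR42 (AT2G28085) differed most in reads. It had 1 read in each fip1-2 library against 16 in each control library, a depth-corrected ratio of 0.0667 (95% exact Clopper-Pearson interval from 0.00775 to 0.262, counting error only). SAUR31 (AT4G00880) had 0 reads in both fip1-2 libraries against 1 and 2 in the control. SAUR5, SAUR8, SAUR34, SAUR38 and SAUR70 (AT5G20810) had at most 14 reads in a library and overlapping groups.

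Per kilobase of the longest RefSeq transcript, SAUR20, SAUR78, SAUR32 and SAUR24 had the highest levels, with means of 956.7, 799.4, 731.9 and 816.4 normalised reads per kilobase in fip1-2 and 1234, 1034, 1003 and 948.7 in the control. Over the 48 members tested, the log2 fold change had a Spearman correlation of 0.27 with the mean level and -0.11 with transcript length. These are descriptions across genes that share 4 libraries, and the values at low levels also have larger errors. The median SE of a log2 fold change was 0.15 over the members and 0.09 over all genes tested.

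Most of the proton pumps that SAUR proteins keep active were higher in fip1-2 as deposited. Of 11 plasma membrane proton pump genes 9 were tested and 6 rose, with a median log2 fold change of 0.54. By limma 0 were called lower (0 also at an unadjusted p under 0.05, and 0 by edgeR and DESeq2). Across all genes tested, limma called 27.0% higher and 26.8% lower. AHA2 (AT4G30190), a major pump of the plant, had 37998 and 39035 normalised reads in fip1-2 against 26690 and 26153 in the control (0.54 ± 0.06, adjusted p = 1.36e-06). AHA3 (AT5G57350) had 4874 and 4776 in fip1-2 and 2635 and 2748 in the control (0.84 ± 0.05, adjusted p = 5.53e-09), and AHA8 (AT3G42640) had 428.2 and 408.9 against 112.4 and 114.5 (1.86 ± 0.10, adjusted p = 2.77e-09). These genes are long, and after the length correction 4 rose and 2 fell (AHA5 and AHA11), against 24.6% and 25.0% of all genes. Their median there was 0.27. AHA1 and AHA10 lost their calls there, and AHA10 also in DESeq2 and without control replicate 1, fip1-2 replicate 1 or fip1-2 replicate 2.

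Of the 9 D-clade PP2C phosphatase genes, the targets that SAUR proteins inhibit, 5 fell and 1 rose, against 26.8% and 27.0% of all genes. Their median was -0.16. AT5G02760 had 4171 and 4276 normalised reads in fip1-2 against 7749 and 7824 in the control (-0.88 ± 0.05, limma adjusted p = 2.23e-09), and AT4G33920 had 534.7 and 536.6 against 662.9 and 678.5 (-0.32 ± 0.07, adjusted p = 0.00107). AT5G06750 had 409.7 and 374.7 in fip1-2 and 287.3 and 250.4 in the control (0.54 ± 0.10, adjusted p = 0.000266). These phosphatase transcripts are of middle length, and 6 were lower after the length correction, against 25.0% of all genes. DESeq2 called 2 of the 9 lower, and 3 were lower without fip1-2 replicate 1 and without fip1-2 replicate 2.

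**Figure D5:**
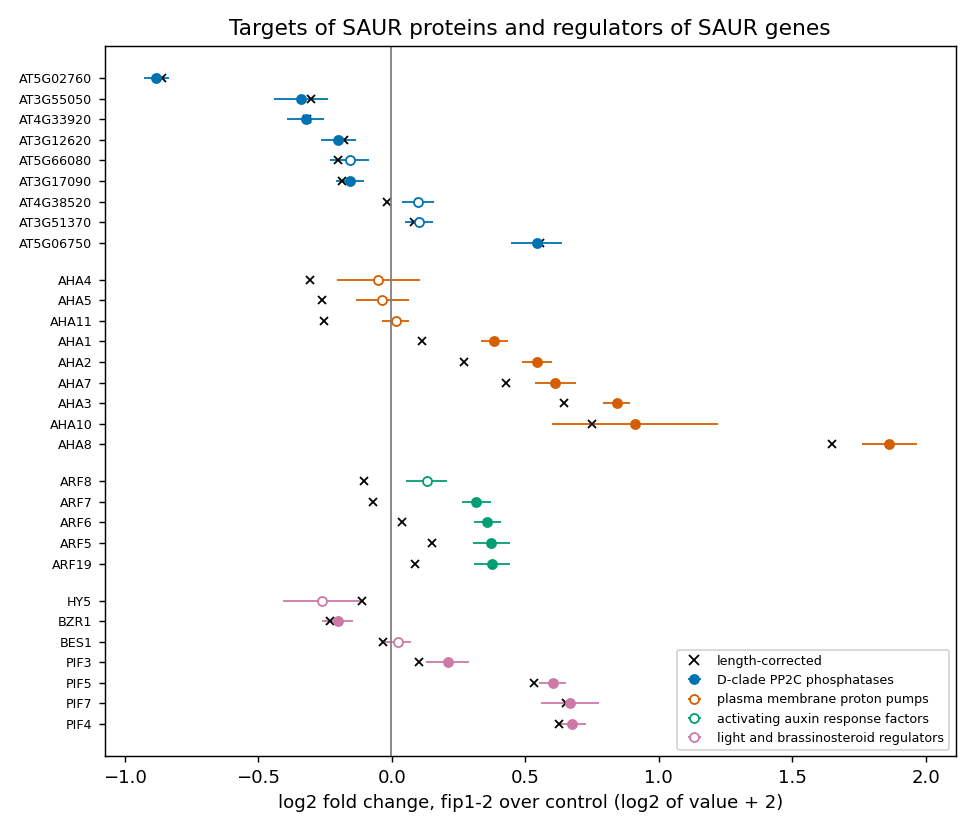
Log2 fold change (fip1-2 over control, x axis) of the tested genes of 4 lists, the phosphatases and proton pumps that act downstream of SAUR proteins and 2 groups of transcription factors upstream of SAUR genes, with bars for ± 1 SE and n = 2 libraries per group. Filled circles passed the test, open circles did not, crosses give the length-corrected value and the grey line is the median of all genes tested. AHA8 lies farthest right at 1.86 and AT5G02760 farthest left at -0.88, and the crosses of the auxin response factors lie near the grey line.

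Transcription factors that act on SAUR promoters were mostly higher as deposited, and for the auxin response factors the length correction ended this. Of the 5 activating auxin response factors 4 rose, against 27.0% of all genes. Their median was 0.36. ARF6 (AT1G30330) had 2231 and 2290 normalised reads in fip1-2 against 1757 and 1772 in the control (0.36 ± 0.05, limma adjusted p = 4.16e-05). ARF7 (NPH4 in RefSeq, AT5G20730) had 1929 and 1949 in fip1-2 and 1510 and 1603 in the control (0.32 ± 0.06, adjusted p = 0.000202), and ARF19 (AT1G19220) had 885.1 and 864.5 against 647.6 and 701.8 (0.38 ± 0.07, adjusted p = 0.000269). All 4 calls were lost after the length correction, where limma called 0 of the 5 in each direction (0 also at an unadjusted p under 0.05), ARF7 changed sign and the median was 0.04; edgeR and DESeq2, run without that step, called 4 higher.

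Of the 7 light and brassinosteroid regulators 4 rose and 1 (BZR1) fell, against 27.0% and 26.8% of all genes. The call of BZR1 was lost in DESeq2 and without fip1-2 replicate 2. PIF4 (AT2G43010), which drives hypocotyl elongation in warmth and shade, had 4298 and 4405 normalised reads in fip1-2 against 2663 and 2785 in the control (0.68 ± 0.05, limma adjusted p = 5.79e-08). PIF5 (PIL6 in RefSeq, AT3G59060) had 2938 and 2919 in fip1-2 and 1881 and 1973 in the control (0.60 ± 0.05, adjusted p = 2.4e-07), and PIF7 (AT5G61270) had 300.1 and 292.7 against 170.1 and 202.9 (0.67 ± 0.11, adjusted p = 0.000135). These 3 genes were higher under every alternative run. The call of PIF3 was lost in DESeq2, with no filter on low values and after both corrections. It was also lost when any of the 4 libraries was left out. The median of the 7 regulators was 0.21 as deposited and 0.10 after the length correction. There 3 rose and 1 fell, against 24.6% and 25.0% of all genes.

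The 500 bases upstream of the annotated start were searched on both strands for motifs bound by these factors. The auxin response element TGTCTC was in 11 of 60 members (18.3%), against 21.4% of the 19818 genes tested that have such a window. Its variant TGTCGG was in 5 members (8.33%) against 8.43%, and the G-box CACGTG, a motif bound by PIF proteins, was in 3 members (5%) against 10.5%. A match is a description of letters and not of binding.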

How the data were processed

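The submitters' processing notes name HISAT2, HTSeq, edgeR, FastQC and CASAVA 1.4 without their roles, and the sources used here give no build, annotation or counting option. The deposited table holds a signal per gene and library, a read count scaled by the authors with a size factor for each library, per the file headers and the values. Division by the smallest step gave whole reads for 100% of values (within 1e-06). Values were used as deposited. Genes with a mean of at least 10 entered limma 3.58.1 (R 4.3.3, variance trend) as log2(value + 2), compared by two-sided tests at a Benjamini-Hochberg adjusted p of 0.05. edgeR 4.0.16 on recovered reads called 10731 genes, 10670 of them shared with limma's 10726; DESeq2 1.42.0 was a further alternative. Fold changes on this scale understate changes of low genes. The protocol marks no strand.

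Names, transcript lengths and sequences come from RefSeq (TAIR10.1); no coordinates are given because the build may differ. Coding sequences were aligned with mafft 7.526. The length correction subtracts a loess fit on length and GC content with a span of 0.5 over all genes tested. The members and lists were chosen with earlier results of these data known. By rule, statistics are given in each cluster for the member with the highest mean and up to 4 with the smallest p. The dispersed members were treated alike, and 3 genes are given per pathway list. SAUR7, SAUR9, SAUR25, SAUR30, SAUR32, SAUR41, SAUR45, SAUR53 and SAUR72 were added after their values were seen. Fold changes and errors of SAUR10, SAUR24, SAUR37, SAUR46, SAUR52, SAUR54 and SAUR59 are also given outside that rule. The test was checked on counts simulated with a spread fitted to these libraries. That check cannot show how far separate cultures would differ, and no length trend was simulated. Leaving out each library and other scalings, filters, pseudocounts and a replicate block were tried.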

Additional observations from a re-analysis of the deposited data

How the results depend on the processing

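Depth of 20874114 to 21104606 reads limits members under 10 reads, and 2 libraries per group limit every test. Of the 34 members lower by limma, 34 stayed lower with edgeR, pseudocounts of 0.5 and 8, robust variance and the replicate block, 33 with quantile normalisation, 27 with a filter of 50 (which tests fewer genes), 25 with no filter and 14 under every alternative that tested them. Same-numbered replicates did not deviate together across genes (correlation -0.0117). With 2 libraries per group, this cannot show whether they shared a batch or culture. The block kept the counts at 34 lower and 1 higher.

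Members lower numbered 19 with DESeq2, 19 after the length correction and 16 after the exon correction, and 25 to 32 without a library. Members higher numbered 0 with DESeq2 (1 at an unadjusted p under 0.05, 1 by limma and by edgeR), 2 and 5 after the length and exon corrections, and 0 to 2 without a library. Lower phosphatases numbered 2 with DESeq2 and 3 to 4 without a library, and higher ones 1 to 2. Lower pumps numbered 2 after either correction, higher auxin response factors 0, and lower regulators 0 with DESeq2 and 0 to 1 without a library.

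The members' median was -0.46 with a pseudocount of 8, -0.45 with a filter of 50, -0.26 and -0.12 after the corrections, and -0.58 to -0.45 without a library. After the length and then the exon correction the medians were -0.06 and 0.077 on chromosome 5, 0.10 and 0.16 on chromosome 1, -0.66 and -0.53 in the upper and -0.14 and 0.001 in the lower chromosome 4 cluster, -0.29 and -0.15 on chromosome 3, and -0.46 and -0.33 for dispersed members. The upper chromosome 4 median was -0.62 with no filter and with a filter of 50, which change the genes tested. Without a library the medians ran from -0.352 to -0.067 on chromosome 1 and from -0.59 to -0.34 in the lower chromosome 4 cluster.

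Signs turned after the length and the exon correction, at 0.17 and 0.31 for SAUR21, 0.092 and 0.23 for SAUR24, 0.24 and 0.38 for SAUR61, 0.10 and 0.24 for SAUR62, 0.17 and 0.16 for SAUR64, 0.01 and 0.15 for SAUR15, 0.00 and 0.14 for SAUR27, 0.023 and 0.013 for SAUR33, and -0.07 and -0.079 for ARF7. After the exon correction alone they turned for SAUR20 (0.083), SAUR22 (0.07), SAUR10 (0.054), SAUR14 (0.001) and SAUR46 (0.015). SAUR66 was -0.006 with edgeR and -0.005 with DESeq2, and SAUR51 -0.051 with quantile normalisation. Without a library, signs also turned for SAUR61 (-0.067 to 0.012), SAUR62 (-0.352 to 0.023), SAUR64 (-0.218 to 0.101), SAUR66 (-0.253 to 0.287), SAUR33 (-0.558 to 0.01) and SAUR51 (-0.351 to 0.709). The cause was not tested.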
